A study of Canis lupus familiaris with 24 samples.

Results

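The genes described here encode the actin cytoskeleton and the focal adhesions of MDCK cells, a dog kidney epithelial cell line. They are 48 gene symbols given as a list: actin crosslinkers, proteins that link integrins to actin, LIM-domain adaptors, adhesion kinases and proteases, tropomyosins, myosins, cortical linkers, formins and scaffolds among them. Of the 48, 46 were present under those symbols in the gene count table of 32704 genes, and LIMS1 and PDLIM7 were not. All 46 passed the filter on low counts and were tested among 12466 genes. The libraries were stranded mRNA libraries from 2 MDCK sublines, MDCK-II and MDCK-NBL2, in 8 groups of 3. MDCK-II was collected at day 0 without treatment, and at day 4 without treatment or with TGFb. MDCK-NBL2 was collected in the same 3 states and also at day 4 under TGFb with a control siRNA (siCTR) or with an siRNA against PRRX1 (siPRRX1), a transcription factor active in mesenchymal cells. By the labels' phenotype, the untreated groups were epithelial. It was partial EMT (epithelial to mesenchymal transition) for MDCK-II with TGFb and for MDCK-NBL2 with TGFb and siPRRX1, and full EMT for the other groups of TGFb-treated MDCK-NBL2. Each group is a single cell line, replicates are numbered, and the labels do not say whether numbers mark separate cultures. P-values therefore speak to the spread among the sequenced libraries alone.

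Focal adhesions are plaques where integrins, bound to the matrix outside the cell, are coupled through talin, kindlin, vinculin and ILK to actin filaments inside it. Crosslinkers such as alpha-actinin and filamin bundle those filaments, and non-muscle myosin II with tropomyosin and caldesmon makes them contract. Cells undergoing EMT are known to replace a cortical actin belt at cell junctions with stress fibres anchored at focal adhesions, and many of these genes are known targets of SRF, a transcription factor that responds to the actin monomer pool through its MRTF cofactors.

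Total counts per library ranged from 6134929 to 27567296. Levels are given as CPM, counts scaled to 1000000 per library on TMM-scaled library sizes. They are not per transcript length, so levels of different genes are not compared. The untreated MDCK-NBL2 library of day 4, replicate 2, stood apart: on the first principal component, which held 59.4% of the variance, it lay at 59.3, against -4.85 and -20.0 for the other libraries of its group and 84.1 to 98.7 for TGFb-treated MDCK-NBL2. This outlying library is untreated by its label, and results are given with it. Counts of calls, and changes of some genes, are also given without it. A second library, untreated MDCK-NBL2 of day 0, replicate 1, held 35 genes typical of MDCK-II at 10.03% (median) of the level in that line. These genes were picked as at 20 CPM or above on average in MDCK-II of day 0 and under 2% of that in MDCK-NBL2 replicates 2 and 3 of day 0. The low values of those replicates were therefore fixed by the choice, which left replicate 1 out. In the MDCK-NBL2 libraries of day 4, which did not enter the choice, the medians were 0.0736% to 1.59%. PRRX1 was at 33.9, 7.35 and 3.88 CPM with siCTR and at 1.11, 0.339 and 0 CPM with siPRRX1, a log2 fold change of -4.64 ± 1.17 (SE, adjusted p = 0.0435). Of 8 epithelial markers, 6 were in the table and their summed level was 1020 CPM or above in every library. In MDCK-NBL2 of day 4 the sum was 1780 to 2800 CPM untreated and 1210 to 1320 CPM with TGFb, without overlap, and its part in the results was not tested. Most of the sum was CDH1 and EPCAM. These 2, PAX8 and PAX2 were lower in all treated libraries than in all untreated ones there. LHX1 of the same list went the other way, from 1.5, 9.28 and 1.15 CPM to 10.9, 11.5 and 13.4 CPM. CDH16, a kidney cadherin, was at 0 in all libraries of the 3 TGFb-treated MDCK-NBL2 groups and already low in untreated MDCK-NBL2, at 0.0693, 0.0661 and 0 CPM at day 0 and 3.09, 0.037 and 0.229 CPM at day 4. Markers of other cell types were low: leukocyte markers summed to at most 2.41 CPM and fibroblast markers to at most 48 CPM. Smooth muscle markers summed to 43.1 to 64.5 CPM in MDCK-II of day 4 and 151 to 230 CPM with TGFb. They summed to 30.1 to 280 CPM in untreated MDCK-NBL2 of day 4 (280 in the outlying library), 286 to 367 CPM with TGFb, 355 to 380 CPM with siCTR and 176 to 231 CPM with siPRRX1. Most of that sum was SMTN, ACTG2 reached at most 64.7 CPM, and the smooth muscle myosin MYH11 never exceeded 0.361 CPM. The part of this list in the results was not tested, and in these bulk libraries fewer cells of a type cannot be told apart from less RNA per cell.

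Most of the actin and adhesion genes were higher after TGFb in both lines, with a positive fold change in 38 of 46 in MDCK-II and 37 of 46 in MDCK-NBL2. In MDCK-II 17 of the 46 rose and 3 fell (43.5%) at an adjusted p under 0.05, where 21.1% of all tested genes were called, and the median log2 fold change over the 46 was 0.519, against -0.031 over all genes tested. In MDCK-NBL2 26 rose and 6 fell (69.6%), where 44.3% of all tested genes were called, with a median of 0.699 against -0.0393. By direction, 11.8% of all genes rose in MDCK-II and 37% of these did, and 21% rose in MDCK-NBL2 against 56.5% of these. Falls were called in 6.52% of the 46 in MDCK-II and 13% in MDCK-NBL2, against 9.27% and 23.4% of all genes. All fold changes are log2 with their SE, adjusted p-values are from edgeR's quasi-likelihood test with Benjamini-Hochberg adjustment over all genes tested, and a gene is called at an adjusted p under 0.05. Without the outlying library the calls were 25 up and 4 down in MDCK-II, where 30.7% of all genes were called (16.1% up and 14.6% down). They were 29 up and 5 down in MDCK-NBL2, with a median of 1.02, where 54.8% of all genes were called (27.1% up and 27.7% down). In MDCK-NBL2 RDX, RHOB, TPM1 and ZYX were gained, and DIAPH1 and BCAR1 were lost. Leaving out each library of the groups compared in turn also moved MDCK-NBL2 changes. They were 0.93 to 1.80 for ACTN1, 1.06 to 1.91 for FLNA, 0.80 to 1.66 for MSN, 0.81 to 1.60 for ILK and 1.252 to 1.925 for VCL. MDCK-II calls moved although the outlying library is not of that line, because all groups share 1 estimate of the spread. The MDCK-II rises gained without it were ACTN1, FERMT1, FERMT2, LIMA1, MSN, SRF, TLN1 and TPM1 (adjusted p = 0.0447, 0.00837, 0.0137, 0.00422, 0.0106, 0.0474, 0.0176 and 0.000115). The fall gained was DIAPH3 (adjusted p = 0.033). Fitted on the 6 MDCK-NBL2 libraries of day 4 alone, the TGFb comparison called 4 of the 46 genes, where 4.48% of all genes were called. The 4 were PLS3, TNS3, MYO5A and IQGAP2. That fit ended 27 calls described below, among them those of FLNA, ACTN1, FLNC, CALD1, MYH9, TNS1 and VCL (adjusted p = 0.0895, 0.108, 0.149, 0.157, 0.152, 0.165 and 0.0525), and LCP1 did not pass its filter on low counts.

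**Figure D1:**
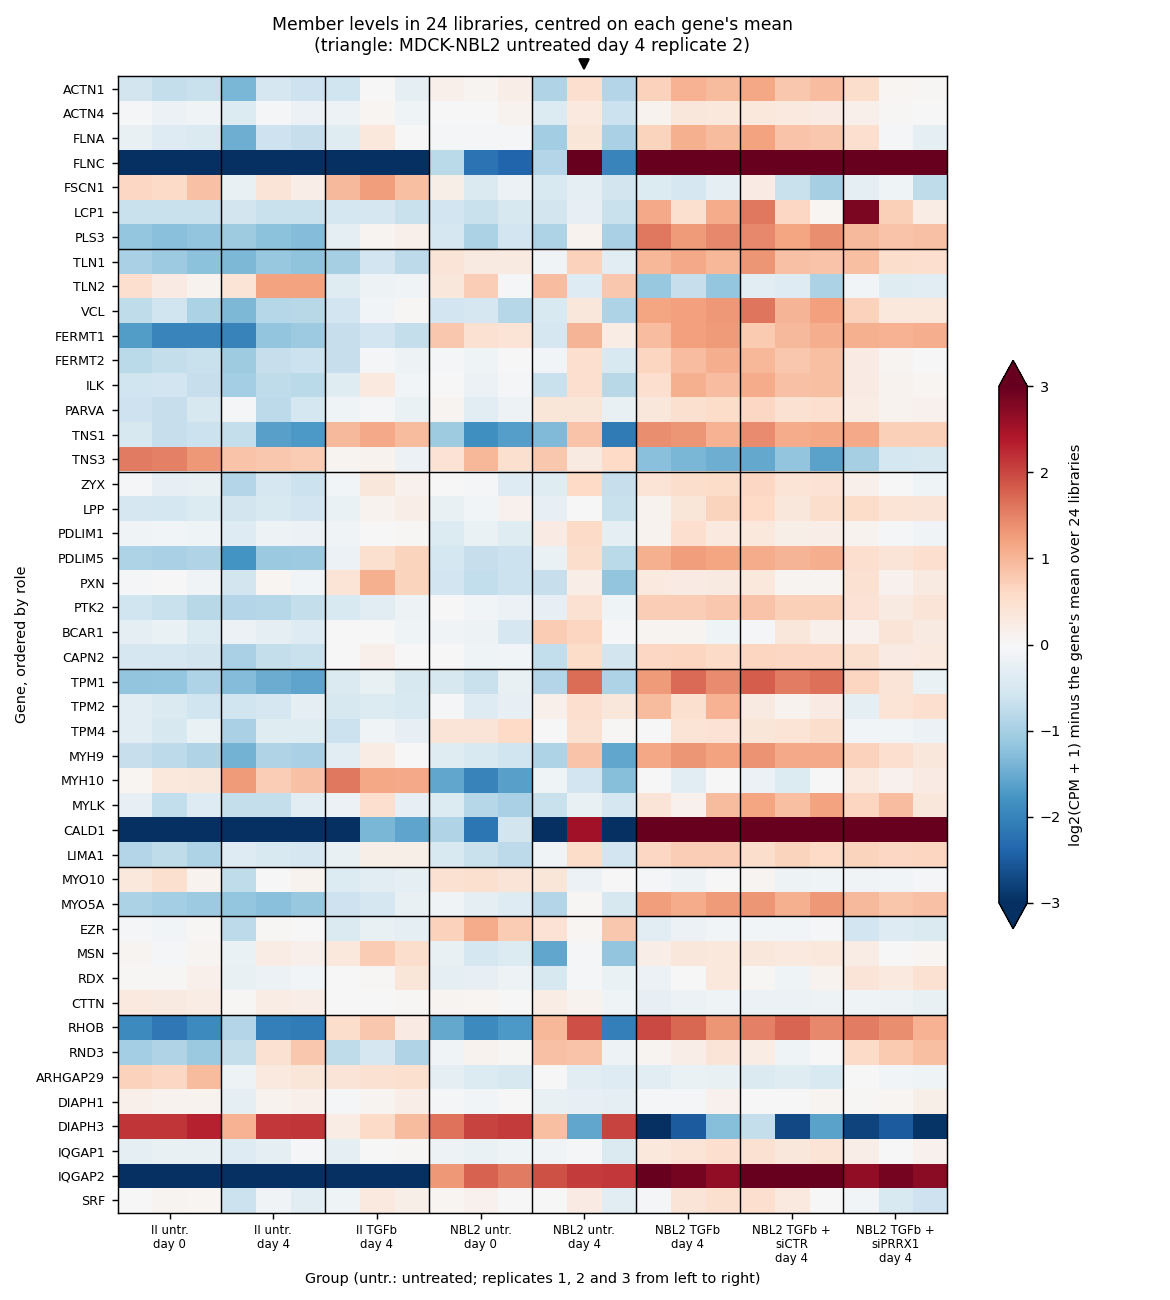
Level of the 46 genes (rows, ordered by role) in each of the 24 libraries (columns, in groups of 3), as log2(CPM + 1) minus the gene's mean over the 24 libraries; red is higher and blue lower. FLNC, CALD1 and IQGAP2 span the widest range, and the marked column, untreated MDCK-NBL2 of day 4, replicate 2, resembles the TGFb-treated columns in FLNC, CALD1, TPM1 and RHOB.

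Among the 7 crosslinkers and bundlers, 3 rose in MDCK-II and 6 rose in MDCK-NBL2, and none fell in either line. Of all genes tested, 11.8% rose and 9.27% fell in MDCK-II, and 21% rose and 23.4% fell in MDCK-NBL2. PLS3 (plastin 3, which packs actin filaments into tight bundles) rose in both. Its levels in MDCK-II were 121, 108 and 102 CPM untreated at day 4 and 211, 269 and 279.6 CPM with TGFb, a log2 fold change of 1.20 ± 0.21 (adjusted p = 0.00088). In MDCK-NBL2 they were 133, 273 and 129.5 CPM untreated and 756, 613 and 686 CPM with TGFb, a change of 1.94 ± 0.21 (adjusted p = 8.35e-06). Treated and untreated libraries did not overlap in either line, even though the outlying library, at 273 CPM, was at about the MDCK-II treated level. LCP1 (plastin 2, the bundler typical of leukocytes) was nearly absent from MDCK-II, with 1 count over the untreated and 4 over the treated libraries of day 4, a ratio of 4.45 whose counting interval of 0.4404 to 219.2 includes no change. It rose in MDCK-NBL2 from 0.0812, 0.333 and 0 CPM to 2.49, 1.22 and 2.4 CPM, a change of 3.48 ± 1.00 (adjusted p = 0.00967) resting on 11 and 39 counts. No library outside the TGFb-treated MDCK-NBL2 groups exceeded 0.333 CPM, so LCP1 passed the filter on low counts through those groups alone. Its rise, counted among the 6, is therefore not independent of the filter. Leukocyte markers summed to 0.555 to 0.574 CPM in untreated MDCK-NBL2 of day 4 and 0.192 to 0.609 CPM with TGFb, and their part was not tested.

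FLNA (filamin A, which crosslinks actin into orthogonal networks) measured 922, 1649 and 1557 CPM without TGFb in MDCK-II and 1972, 3134 and 2516 CPM with it, a change of 0.88 ± 0.31 (adjusted p = 0.0472). The same gene measured 1222, 3249 and 1298 CPM without TGFb in MDCK-NBL2 and 4033, 5270 and 4932 CPM with it, a change of 1.30 ± 0.31 (adjusted p = 0.0025). Its treated libraries were above its untreated ones in both lines, but the MDCK-II call ended without any of 5 libraries, at an adjusted p of up to 0.183 without TGFb replicate 2. FLNC (filamin C, the form typical of muscle) was at very different levels in the lines. It was near the limit of detection in MDCK-II, at 0.144, 0.0662 and 0.231 CPM untreated and 0.181, 0.256 and 0.335 CPM with TGFb (6 and 12 counts; adjusted p = 0.792). MDCK-NBL2 held 6.82, 120.2 and 2.64 CPM untreated and 476, 294 and 267 CPM with TGFb, a change of 2.98 ± 0.80 (adjusted p = 0.00562). The outlying library, at 120 CPM, lay between the groups, and without it the change was 6.07 ± 0.49 (adjusted p = 1.31e-08).

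ACTN1 (alpha-actinin 1, the crosslinker of stress fibres) measured 538, 985 and 907 CPM without TGFb in MDCK-II and 924, 1411 and 1166 CPM with it, overlapping groups with a change of 0.53 ± 0.29 (adjusted p = 0.205). In MDCK-NBL2 ACTN1 rose from 744, 1979 and 759.7 CPM to 2277, 2872 and 2692 CPM, a change of 1.17 ± 0.30 (adjusted p = 0.00384). All treated MDCK-NBL2 libraries exceeded all untreated ones. Its paralog ACTN4 moved less: 730.2, 958 and 864 CPM against 882, 1019 and 887 CPM in MDCK-II (change 0.13 ± 0.17 (adjusted p = 0.633)), and 735, 1193 and 623 CPM against 1045, 1226 and 1220 CPM in MDCK-NBL2 (change 0.45 ± 0.17 (adjusted p = 0.0362)). The ACTN4 call in MDCK-NBL2 ended without any of 4 libraries, at an adjusted p of up to 0.189 without untreated replicate 3. FSCN1 (fascin, the bundler of filopodia) rose in MDCK-II, from 7.06, 11.4 and 9.81 to 17.4, 21.4 and 16.5 CPM, with a change of 0.97 ± 0.27 (adjusted p = 0.0168). That call ended without TGFb replicate 2 (adjusted p = 0.0831) or untreated replicate 1 (0.0601). FSCN1 measured 5.89, 6.84 and 5.39 CPM without TGFb in MDCK-NBL2 and 6.14, 5.6 and 6.76 CPM with it, a change of 0.02 ± 0.29 (adjusted p = 0.967). The difference between the lines was -0.95 ± 0.40 (adjusted p = 0.16), which did not pass.

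Of the 9 genes that link integrins to actin, 3 rose and 2 fell in MDCK-II, and 6 rose and 2 fell in MDCK-NBL2. Calls over all genes were 21.1% in MDCK-II and 44.3% in MDCK-NBL2. The 2 that fell were TLN2 and TNS3 in both lines, while the levels of their paralogs TLN1 and TNS1 were higher. VCL (vinculin, which reinforces the talin to actin link under tension) measured 182, 255 and 259.8 CPM without TGFb in MDCK-II and 310.3, 439 and 476 CPM with it, a change of 0.81 ± 0.25 (adjusted p = 0.0262). Its call ended without any of 3 libraries (adjusted p up to 0.103 without TGFb replicate 3). In MDCK-NBL2 VCL went from 334, 583 and 241 CPM to 1053, 1081 and 1149 CPM, a change of 1.50 ± 0.25 (adjusted p = 0.000175). No treated library fell within the untreated range in either line. ILK (integrin-linked kinase, a pseudokinase scaffold) changed by 0.83 ± 0.25 (adjusted p = 0.0235) in MDCK-II, where the call ended without any of 4 libraries (adjusted p up to 0.125 without TGFb replicate 2), and by 1.05 ± 0.25 (adjusted p = 0.00244) in MDCK-NBL2. Its binding partner PARVA (alpha-parvin) was not called in either line, with changes of 0.31 ± 0.17 (adjusted p = 0.199) and 0.28 ± 0.17 (adjusted p = 0.19).

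The tensins, which tie integrin tails to actin, went in opposite directions. TNS1 measured 93.4, 48.6 and 45.7 CPM without TGFb in MDCK-II and 303, 339 and 295 CPM with it, a change of 2.32 ± 0.49 (adjusted p = 0.00325). TNS3 was at 115, 112 and 107 CPM and 67.2, 68.3 and 56.3 CPM in the same groups, a change of -0.80 ± 0.17 (adjusted p = 0.00339). Both calls held without each library of the 2 groups in turn. In MDCK-NBL2 TNS1 went from 60.4, 276 and 34.3 CPM to 406, 387 and 319.9 CPM, a change of 1.58 ± 0.48 (adjusted p = 0.0117) that did not pass without untreated replicate 1 (adjusted p = 0.0616). TNS3 went from 112, 76.1 and 97.2 CPM to 25.9, 24 and 22.4 CPM, a change of -1.98 ± 0.18 (adjusted p = 1.72e-06). For TNS3 all 3 treated libraries were below all 3 untreated ones, whereas for TNS1 the outlying library, at 276 CPM, approached the treated range, and without it the TNS1 change was 2.95 ± 0.31 (adjusted p = 2.72e-07).

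Talins open integrins for ligand binding and are the first link to actin. TLN1 measured 136, 155 and 149 CPM without TGFb in MDCK-II and 172, 233 and 200.2 CPM with it, a change of 0.46 ± 0.20 (adjusted p = 0.103). In MDCK-NBL2 TLN1 was at 323, 556 and 275 CPM and 685, 756 and 694 CPM, a change of 0.89 ± 0.20 (adjusted p = 0.0016). Treated libraries were above untreated ones in both lines, and the call was made in MDCK-NBL2. TLN2 measured 42.8, 74.7 and 74.3 CPM without TGFb in MDCK-II and 24.4, 28.5 and 29.6 CPM with it, a change of -1.22 ± 0.29 (adjusted p = 0.00672). It was at 61.4, 24.3 and 56.3 CPM and 13.8, 19.4 and 13.7 CPM in MDCK-NBL2, a change of -1.59 ± 0.30 (adjusted p = 0.000454). The TLN2 calls held without each library of the groups compared. The kindlins, which bind integrin tails beside talin, were FERMT1 (kindlin-1, the epithelial form) and FERMT2 (kindlin-2, the broadly expressed form). FERMT1 was at 5.11, 9.8 and 10.5 CPM and 14.4, 15.7 and 14.1 CPM in MDCK-II without and with TGFb, a change of 0.80 ± 0.29 (adjusted p = 0.0523) with no overlap. In MDCK-NBL2 FERMT1 was at 16.5, 48.8 and 27.6 CPM and 46, 56.5 and 58.5 CPM, a change of 0.79 ± 0.27 (adjusted p = 0.0245). The latter call ended without any of 4 libraries (adjusted p up to 0.125 without untreated replicate 1). FERMT2 was at 68, 88.2 and 91.9 CPM and 89.1, 137 and 129 CPM in MDCK-II, a change of 0.52 ± 0.19 (adjusted p = 0.0586). In MDCK-NBL2 it rose from 135, 203 and 105 CPM to 225, 276 and 305 CPM, a change of 0.86 ± 0.19 (adjusted p = 0.00153).

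Of the 8 LIM adaptors and adhesion signalling genes, 6 rose and none fell in MDCK-II, where 21.1% of all genes were called. In MDCK-NBL2 5 rose and 1 fell, where 44.3% of all genes were called. PDLIM5, which binds alpha-actinin along stress fibres, had the largest change of the 8 in both lines. It measured 112, 179 and 183 CPM without TGFb in MDCK-II and 343, 545 and 618 CPM with it, a change of 1.67 ± 0.25 (adjusted p = 0.000273). In MDCK-NBL2 PDLIM5 was at 339.5, 557 and 219.7 CPM and 812, 917 and 874 CPM, a change of 1.22 ± 0.25 (adjusted p = 0.000757). Its groups did not overlap in either line. Changes in MDCK-II were 0.91 ± 0.24 (adjusted p = 0.0123) for PXN (paxillin, the adhesion scaffold), 0.82 ± 0.21 (adjusted p = 0.0121) for CAPN2 (calpain 2, a protease that cuts talin) and 0.81 ± 0.22 (adjusted p = 0.0151) for ZYX (zyxin, which marks tensed adhesions). LPP, a relative of zyxin, changed by 0.61 ± 0.17 (adjusted p = 0.0154) and PTK2 (focal adhesion kinase) by 0.52 ± 0.14 (adjusted p = 0.0142). Of these 5 calls, those of PXN, CAPN2, ZYX and LPP ended without TGFb replicate 2 (adjusted p = 0.0801, 0.0502, 0.0768 and 0.0618). Those of LPP and PTK2 ended without TGFb replicate 3 (0.0697 and 0.0709). In MDCK-NBL2 PTK2 changed by 0.70 ± 0.14 (adjusted p = 0.000639), LPP by 0.69 ± 0.17 (adjusted p = 0.00272), CAPN2 by 0.73 ± 0.21 (adjusted p = 0.00958) and PXN by 0.71 ± 0.24 (adjusted p = 0.0211). The CAPN2 and PXN calls ended without untreated replicate 3 (adjusted p = 0.0552 and 0.109) or untreated replicate 1 (0.0584 and 0.0906), and the PXN call also without TGFb replicate 1 (0.0522). ZYX did not pass there, at 0.55 ± 0.22 (adjusted p = 0.0507). It passed without the outlying library, at 1.02 ± 0.16 (adjusted p = 2.14e-05). BCAR1 (p130Cas, a docking protein for adhesion signals) was the member that fell in MDCK-NBL2, with a change of -0.48 ± 0.16 (adjusted p = 0.023). Without the outlying library it was not called (adjusted p = 0.0616), nor without untreated replicate 1 (0.136) or TGFb replicate 3 (0.0884).

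The contractile set of 8 had 3 genes that rose in MDCK-II and 4 in MDCK-NBL2, and none that fell. Over all genes 21.1% were called in MDCK-II (11.8% up) and 44.3% in MDCK-NBL2 (21% up), so in MDCK-NBL2 the share called was near that of all genes. CALD1 (caldesmon, which binds actin, myosin and tropomyosin) had no count in the 6 untreated MDCK-II libraries. With TGFb it was at 1.26, 7.52 and 6.36 CPM (277 counts over the group), at least 102.7-fold higher than the level that 3 counts over the untreated group of day 4 would give. The call had an adjusted p of 0.046 and ended without any of 5 libraries (adjusted p up to 0.139, without untreated replicate 2), and with a replicate block (0.0859). In MDCK-NBL2 CALD1 was at 0.772, 126 and 1.61 CPM in untreated libraries of day 4 and 548, 626 and 721 CPM with TGFb, a change of 3.86 ± 1.18 (adjusted p = 0.0149). The outlying library alone held 126 CPM while the other untreated ones were under 2, and without it the change was 9.24 ± 0.73 (adjusted p = 7.79e-08).

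MYH9 (the heavy chain of non-muscle myosin IIA, the main motor of stress fibres) measured 1010, 1434 and 1380 CPM without TGFb in MDCK-II and 2152, 3125 and 2656 CPM with it, a change of 1.05 ± 0.37 (adjusted p = 0.0494). The MYH9 call ended without any of 5 libraries (adjusted p up to 0.157 without TGFb replicate 2). In MDCK-NBL2 it was at 1423, 4844 and 916 CPM and 6033, 6703 and 6182 CPM, a change of 1.40 ± 0.37 (adjusted p = 0.00548). Again the outlying library stood between the groups, and without it the change was 2.43 ± 0.21 (adjusted p = 2.76e-08). MYH10 (the IIB heavy chain) was at 177, 120.0 and 133 CPM and 217, 162 and 159 CPM in MDCK-II without and with TGFb. Its MDCK-NBL2 levels were 65.5, 48.2 and 29.1 CPM and 71.6, 56.5 and 71.1 CPM. Its groups overlapped in both lines and the changes of 0.32 ± 0.22 (adjusted p = 0.304) and 0.47 ± 0.22 (adjusted p = 0.0911) did not pass. MYLK (myosin light chain kinase, which activates myosin II) was low, at 0.36, 0.364 and 0.808 CPM and 0.993, 2.15 and 0.893 CPM in MDCK-II, a change of 1.59 ± 0.52 (adjusted p = 0.0361). This call ended without any of 3 libraries (adjusted p up to 0.279 without TGFb replicate 2) and with a replicate block (0.0601). MYLK was at 0.406, 0.924 and 0.574 CPM and 1.92, 1.46 and 3.31 CPM in MDCK-NBL2, a change of 1.77 ± 0.50 (adjusted p = 0.0084). That one ended without TGFb replicate 3 (0.0685).

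Tropomyosins run along actin filaments and set which myosins and severing proteins reach them. TPM1 measured 66.2, 57.8 and 54.5 CPM without TGFb in MDCK-II and 120.5, 141 and 118 CPM with it, a change of 1.09 ± 0.45 (adjusted p = 0.089). In MDCK-NBL2 TPM1 was at 88.4, 530.2 and 86.2 CPM and 398, 538 and 443 CPM, a change of 0.97 ± 0.45 (adjusted p = 0.0841). Neither passed, though the MDCK-II groups did not overlap. The outlying library held 530 CPM, within the treated range, and without it both changes passed, at 1.09 ± 0.17 (adjusted p = 0.000115) and 2.40 ± 0.21 (adjusted p = 3.12e-08). TPM4 was at 171, 260.2 and 261 CPM and 217, 315 and 287 CPM in MDCK-II and at 341, 461 and 346 CPM and 340.1, 453 and 454 CPM in MDCK-NBL2, with changes of 0.24 ± 0.17 (adjusted p = 0.322) and 0.12 ± 0.17 (adjusted p = 0.595). TPM2 was at most 2.1 CPM in any library, and its changes of 0.61 ± 0.91 (adjusted p = 0.674) and 0.86 ± 0.52 (adjusted p = 0.182) rest on few counts. LIMA1 (EPLIN, which links actin to cadherin junctions and stabilises filaments) changed by 0.50 ± 0.18 (adjusted p = 0.0577) in MDCK-II and rose by 0.67 ± 0.18 (adjusted p = 0.00679) in MDCK-NBL2. Of the unconventional myosins, MYO5A (a vesicle transport motor) rose in both lines, with changes of 0.75 ± 0.17 (adjusted p = 0.00427) and 1.61 ± 0.17 (adjusted p = 6.33e-06), and MYO10 (the filopodial tip motor) was not called, with changes of -0.18 ± 0.17 (adjusted p = 0.467) and -0.15 ± 0.17 (adjusted p = 0.501).

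**Figure D2:**
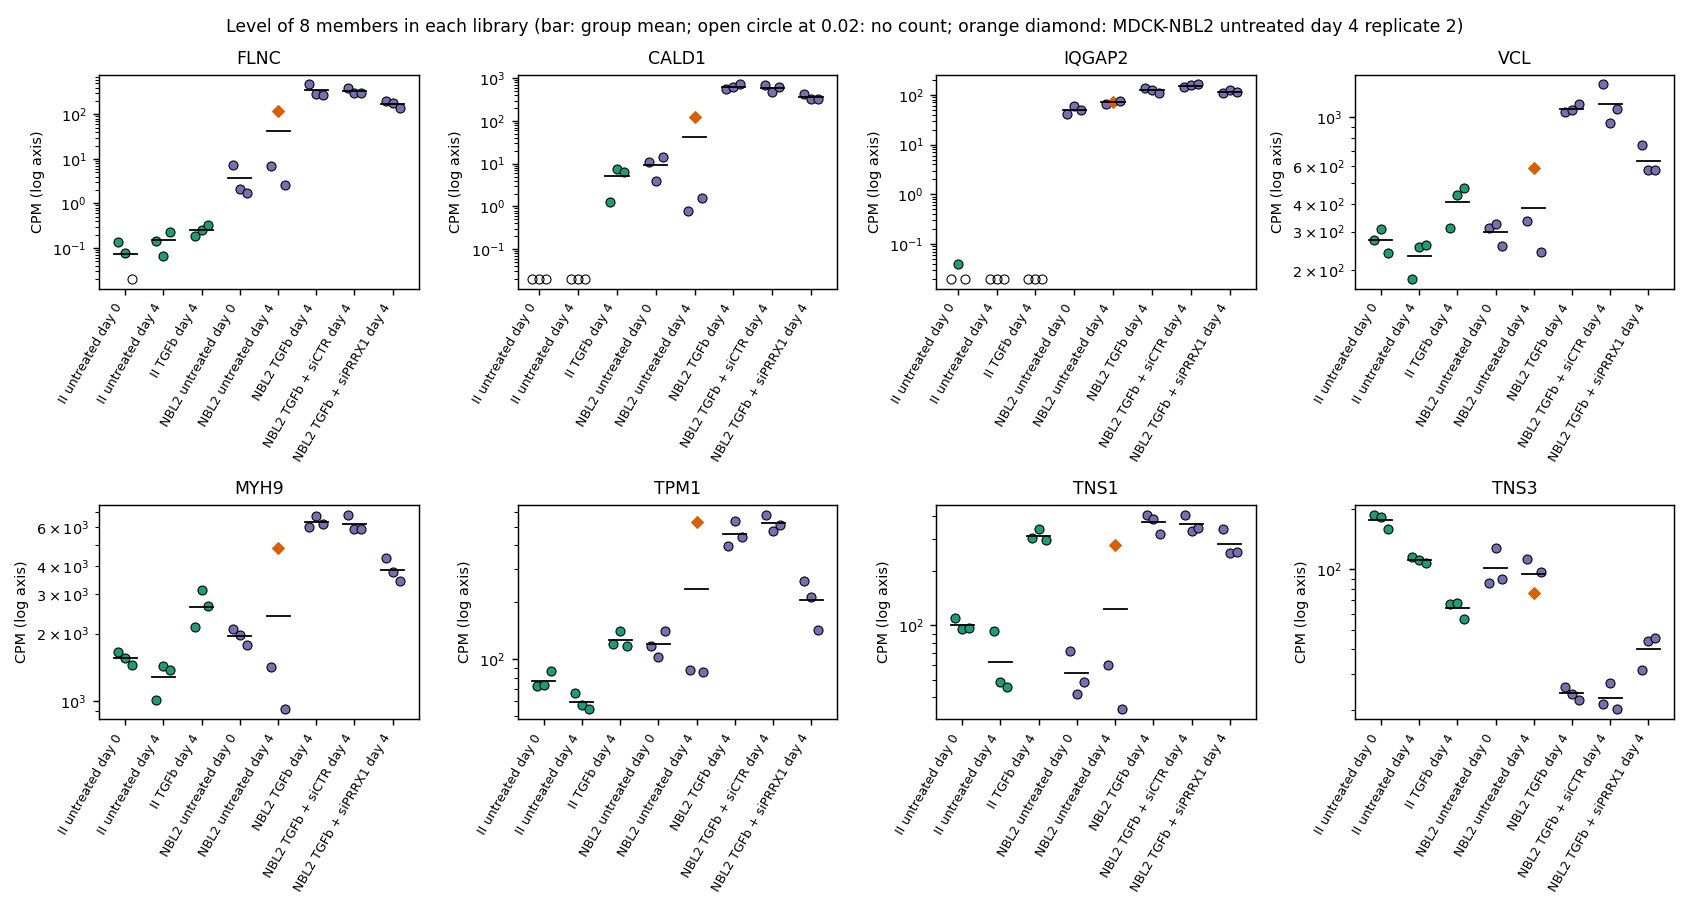
Level of 8 genes in each library (points, CPM on a log axis) by group, with bars at group means, open circles drawn at 0.02 for libraries with no count, and diamonds for untreated MDCK-NBL2 of day 4, replicate 2. CALD1 and IQGAP2 have no count in untreated MDCK-II of day 4, TNS1 and TNS3 move in opposite directions with TGFb, and the diamonds of FLNC, CALD1, TPM1 and TNS1 sit well above the other untreated libraries of their group.

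With all libraries none of the 4 cortical genes was called in MDCK-II, where 21.1% of all genes were. In MDCK-NBL2 1 rose and 2 fell, where 44.3% of all genes were called. Ezrin, radixin and moesin tie actin to the plasma membrane, ezrin being the form of epithelial microvilli. EZR was at 558, 975 and 970.4 CPM and 714, 821 and 794 CPM in MDCK-II without and with TGFb, a change of -0.10 ± 0.19 (adjusted p = 0.738) with overlapping groups. In MDCK-NBL2 it fell from 1294, 1005 and 1685 CPM to 769, 854 and 904 CPM, a change of -0.66 ± 0.19 (adjusted p = 0.00871) that ended without untreated replicate 3 (adjusted p = 0.0644). MSN was at 563, 758 and 725 CPM and 806, 1109 and 934 CPM in MDCK-II, a change of 0.48 ± 0.25 (adjusted p = 0.174), and rose in MDCK-NBL2 from 221, 627 and 284 CPM to 746, 827 and 811 CPM, a change of 1.07 ± 0.25 (adjusted p = 0.00204). RDX was at 199, 207 and 219.7 CPM and 236, 240.0 and 300.4 CPM in MDCK-II and 167, 225 and 205 CPM and 208, 236 and 289.8 CPM in MDCK-NBL2, with changes of 0.31 ± 0.13 (adjusted p = 0.0865) and 0.30 ± 0.13 (adjusted p = 0.0644). In MDCK-NBL2 ezrin and moesin thus moved in opposite directions while radixin was not called with all libraries. Without the outlying library RDX rose there (0.40, adjusted p = 0.0176) and MSN rose in MDCK-II (0.48, adjusted p = 0.0106). CTTN (cortactin, which stabilises branched actin) fell by a small amount in MDCK-NBL2, -0.25 ± 0.09 (adjusted p = 0.031), a call that ended without any of 3 libraries (adjusted p up to 0.145 without untreated replicate 1).

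RHOB, a small GTPase of endosomes and adhesions, measured 91.6, 39.8 and 38.7 CPM without TGFb in MDCK-II and 242, 294 and 198 CPM with it, a change of 2.11 ± 0.55 (adjusted p = 0.0118). Its treated libraries were all above its untreated ones, but the call ended without untreated replicate 2 (adjusted p = 0.0535) or 3 (0.0542). In MDCK-NBL2 RHOB was at 337, 649.9 and 39.8 CPM and 667, 561 and 420.1 CPM, a change of 0.68 ± 0.53 (adjusted p = 0.308). The untreated libraries there spread from 39.8 to 650 CPM and overlapped the treated ones, and without the outlying library the change was 1.53 ± 0.53 (adjusted p = 0.019). RND3 fell in MDCK-II from 45, 102 and 130.4 CPM to 43.6, 52.4 and 39.4 CPM, a change of -1.03 ± 0.28 (adjusted p = 0.0138). The untreated library nearest to the treated ones was replicate 1, which overlapped them, and the call ended without untreated replicate 3 (0.0944) or TGFb replicate 3 (0.062). RND3 was not called in MDCK-NBL2, at -0.38 ± 0.27 (adjusted p = 0.269), nor was ARHGAP29 in either line, at 0.27 ± 0.13 (adjusted p = 0.14) and -0.04 ± 0.13 (adjusted p = 0.836).

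The formins build unbranched actin filaments. DIAPH1 was at 253, 330.5 and 338 CPM and 291, 325 and 349 CPM in MDCK-II and at 263, 256 and 248 CPM and 294, 293 and 336 CPM in MDCK-NBL2, with changes of 0.07 ± 0.10 (adjusted p = 0.688) and 0.27 ± 0.10 (adjusted p = 0.0441). The second of these, called, ended without any of its 6 libraries (adjusted p up to 0.191 without TGFb replicate 3). DIAPH3 was at 61.1, 132 and 134 CPM and 34.4, 44.4 and 57.2 CPM in MDCK-II, a change of -1.27 ± 0.62 (adjusted p = 0.149) without overlap. In MDCK-NBL2 DIAPH3 fell from 55.7, 9.39 and 122 CPM to 1.15, 4.39 and 11.6 CPM, a change of -3.41 ± 0.72 (adjusted p = 0.00107), the largest fall of the 46 genes in that line. The outlying library, at 9.39 CPM, overlapped the treated libraries, and without it the change was -3.92 ± 0.55 (adjusted p = 8.52e-06). IQGAP1 and IQGAP2 are scaffolds that bind actin and the GTPases Rac and Cdc42. IQGAP1 was at 573, 622 and 712 CPM and 607, 735 and 763 CPM in MDCK-II, a change of 0.14 ± 0.12 (adjusted p = 0.417), and rose in MDCK-NBL2 from 689, 732 and 551 CPM to 924, 998 and 1062 CPM, a change of 0.60 ± 0.12 (adjusted p = 0.000661). IQGAP2 had no count in either MDCK-II group of day 4, and rose in MDCK-NBL2 from 64.2, 73.1 and 74.9 CPM to 138, 126 and 109 CPM, a change of 0.82 ± 0.14 (adjusted p = 0.000378). SRF, whose product many of these genes respond to, was at 32, 47.3 and 40.7 CPM and 46.6, 62 and 57.1 CPM in MDCK-II and at 50.6, 60.8 and 40.8 CPM and 49.5, 67 and 71.2 CPM in MDCK-NBL2. The SRF groups overlapped in each line, and its changes of 0.46 ± 0.18 (adjusted p = 0.0751) and 0.30 ± 0.18 (adjusted p = 0.188) did not pass.

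**Figure D3:**
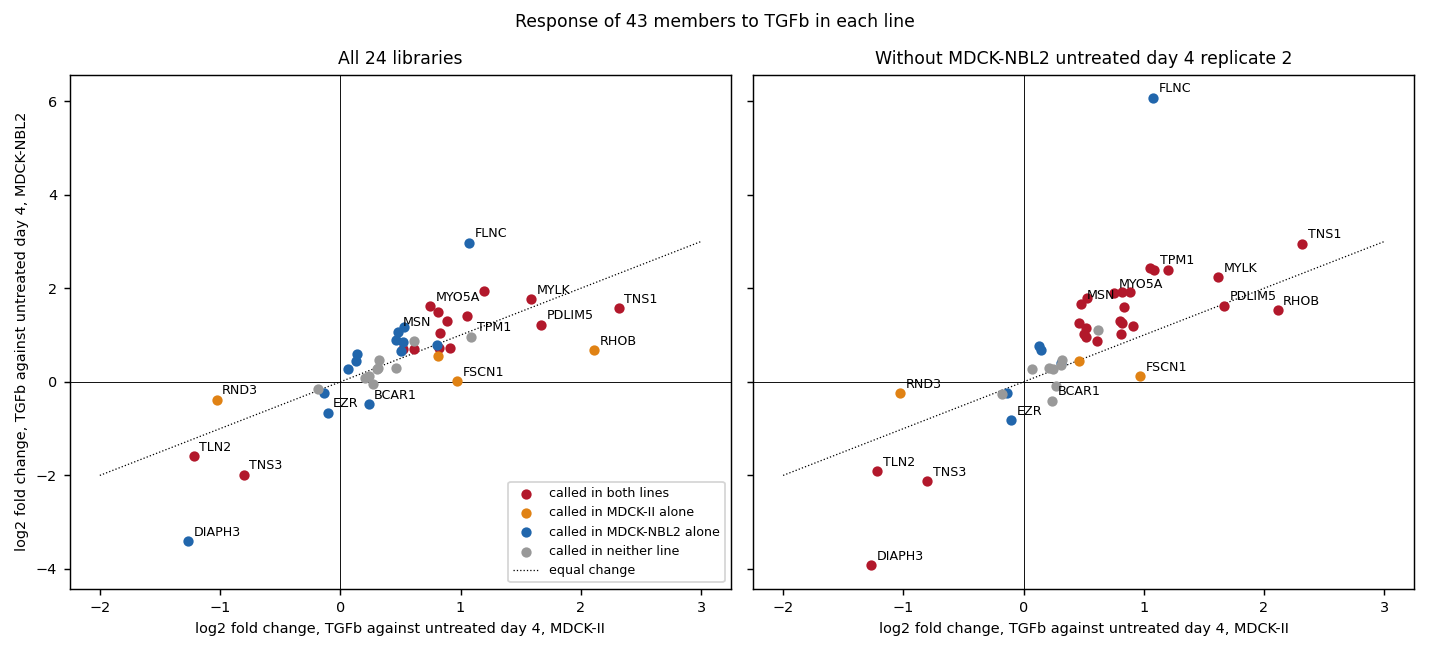
Log2 fold change with TGFb against untreated day 4 in MDCK-II (x axis) and MDCK-NBL2 (y axis) for 43 of the 46 genes, leaving out CALD1, IQGAP2 and LCP1 for few or no counts in MDCK-II; colours give the line in which a gene was called, and the dotted line marks equal change. TNS3, TLN2 and DIAPH3 are the lowest points in MDCK-NBL2, and in the right panel, without untreated MDCK-NBL2 replicate 2 of day 4, most called genes lie above the dotted line.

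The difference between the TGFb responses of the 2 lines was tested directly, as MDCK-NBL2 minus MDCK-II. It passed for 2 of the 46 genes, where 5.7% of all genes tested were called (2.52% up and 3.18% down). TNS3 fell further in MDCK-NBL2, with a difference of -1.18 ± 0.24 (adjusted p = 0.0102), and MYO5A rose further, with a difference of 0.86 ± 0.23 (adjusted p = 0.0362). MYO5A went from 115, 108 and 117 CPM to 167, 182 and 222 CPM in MDCK-II and from 138, 265 and 185 CPM to 617, 554 and 627 CPM in MDCK-NBL2, where the lowest treated library was at 554 CPM and the highest untreated one at 265 CPM. The TNS3 difference held without each library in turn, and the MYO5A one ended without any of 8 of the 12 libraries (adjusted p up to 0.0948). The MYO5A difference also did not pass with a replicate block (0.0591), with no filter on low counts (0.0656) or in a fit of only the groups compared (0.239). That last fit called 1 of the 46 genes, TNS3, where 0.395% of all genes were called. Without the outlying library the difference passed for 18 genes, 15 up and 3 down, where 21.1% of all genes were called (9.93% up and 11.2% down). The 15 were led by FLNC, at 4.99 ± 1.74 (adjusted p = 0.0471), followed by MYH9 at 1.38 ± 0.26 (adjusted p = 0.00124), TPM1 at 1.31 ± 0.26 (adjusted p = 0.00183) and ACTN1 at 1.27 ± 0.29 (adjusted p = 0.00502). With that library included these 4 differences were 1.90 ± 2.90 (adjusted p = 0.761), 0.34 ± 0.52 (adjusted p = 0.758), -0.12 ± 0.63 (adjusted p = 0.947) and 0.64 ± 0.41 (adjusted p = 0.38), so for TPM1 the direction itself turned on 1 library. The 3 that were down were TNS3 at -1.32 ± 0.24 (adjusted p = 0.000821), EZR at -0.72 ± 0.25 (adjusted p = 0.0455) and DIAPH3 at -2.65 ± 0.70 (adjusted p = 0.0115).

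The siRNA against PRRX1 was compared with siCTR in TGFb-treated MDCK-NBL2. Most of the 46 genes were somewhat lower with siPRRX1: 34 had a negative fold change, 24 were lower in all 3 siPRRX1 libraries than in all siCTR ones, and 5 were higher in the same sense, where 16.4% and 15.3% of all tested genes were lower and higher without overlap. The median log2 fold change was -0.309, against 0 over all genes tested. Only 2 genes passed the test, where 2% of all genes were called (0.81% up and 1.19% down): FERMT2 fell and TNS3 rose. FERMT2 was at 286, 252 and 269.7 CPM with siCTR and 171, 152 and 142 CPM with siPRRX1, a change of -0.79 ± 0.19 (adjusted p = 0.0341). TNS3 was at 21.2, 27.2 and 20.1 CPM with siCTR and 31.3, 43.8 and 45.4 CPM with siPRRX1, a change of 0.82 ± 0.18 (adjusted p = 0.0194). Neither gene's groups overlapped, and the siPRRX1 levels of TNS3 stayed below its untreated MDCK-NBL2 range of 76.1 to 112 CPM at day 4. Both calls depended on single libraries: the FERMT2 call ended without any of the 6 (adjusted p from 0.0519 to 0.208) and the TNS3 call without any of 4 (up to 0.141). A fit of the 6 siRNA libraries alone called 23 of the 46, 5 up and 18 down, where 10.3% of all genes were called.

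Without the outlying library, which belongs to neither siRNA group but enters the shared estimate of the spread, 12 genes fell and 1 rose with siPRRX1, where 5.21% of all genes were called (1.97% up and 3.24% down). The falls were in every role except the unconventional myosins and the cortical linkers: 3 crosslinkers and bundlers (ACTN1, FLNA and PLS3), 3 integrin linkers (VCL, FERMT2 and ILK), 2 adhesion genes (ZYX and PTK2), 3 contractile genes (TPM1, TPM4 and MYH9) and SRF. TPM1 had the largest fall, from 583, 477 and 516 CPM with siCTR to 258, 215 and 144 CPM with siPRRX1. Its change was -1.35 ± 0.17 (adjusted p = 0.000147) without the outlying library and -1.35 ± 0.45 (adjusted p = 0.139) with it. Its siPRRX1 libraries were all below its siCTR libraries. The calls of TPM1, ILK and FERMT2 held whichever siRNA library was also left out, with ILK at 327, 279 and 283 CPM against 178, 162 and 156 CPM and a change of -0.84 ± 0.15 (adjusted p = 0.0022). Each of the other 9 falls ended when any of several of these libraries was left out, at an adjusted p of up to 0.23. That of TPM4 ended whichever was left out. Those of PLS3 and ZYX ended without any library but siCTR replicate 2 and siPRRX1 replicate 1, respectively. The rise of TNS3 ended without siPRRX1 replicate 3 (0.0551).

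Values for the other falls that rested on the outlying library being left out were as follows. Each of these calls also ended without some of the siRNA libraries. ACTN1 was at 3116, 2435 and 2652 CPM with siCTR and 2020, 1463 and 1440 CPM with siPRRX1, and FLNA at 5862, 4614 and 4442 and 3586, 2440 and 2090 CPM. PLS3 was at 691, 579.5 and 669.8 and 498, 461 and 466 CPM. Their changes were -0.74 ± 0.19 (adjusted p = 0.0322), -0.88 ± 0.22 (adjusted p = 0.024) and -0.44 ± 0.12 (adjusted p = 0.0415). VCL was at 1416, 943 and 1089 CPM and 749.9, 573 and 574 CPM, and MYH9 at 6825, 5871 and 5887 and 4356, 3792 and 3429 CPM. SRF was at 72.4, 62.1 and 50.1 and 47.5, 36.8 and 32.8 CPM. The changes of VCL, MYH9 and SRF were -0.86 ± 0.19 (adjusted p = 0.0125), -0.68 ± 0.17 (adjusted p = 0.0256) and -0.65 ± 0.17 (adjusted p = 0.0343). None of these 6 genes had overlapping siRNA groups. In the fit of all libraries none passed (adjusted p of 0.234, 0.162, 0.319, 0.0819, 0.412 and 0.0731). PTK2, ZYX and TPM4 changed by -0.40 ± 0.09 (adjusted p = 0.0182), -0.48 ± 0.14 (adjusted p = 0.0464) and -0.55 ± 0.16 (adjusted p = 0.0455). CALD1 was at 698, 482 and 627 CPM with siCTR and 432, 326 and 335 CPM with siPRRX1, and FLNC at 397, 298 and 301 CPM and 196, 184 and 137 CPM. Both were lower in every siPRRX1 library than in any siCTR library. They did not pass with the outlying library (adjusted p = 0.828 and 0.617) or without it (0.335 and 0.0958). Both stayed far above untreated MDCK-II. RHOB, at 477, 564 and 459 CPM and 488, 443 and 349 CPM, and LIMA1, at 612, 675 and 643 CPM and 679, 652 and 659.7 CPM, had changes of -0.23 ± 0.53 (adjusted p = 0.912) and 0.04 ± 0.18 (adjusted p = 0.959). Numbers in the sample titles place the siRNA libraries in 2 series of library numbers, replicate 1 of each group in 1 series and replicates 2 and 3 in the other. Within the series of replicates 2 and 3 alone TPM1 changed by -1.48 and FERMT2 by -0.84, and within that of replicate 1 alone by -1.18 and -0.75. Within replicates 2 and 3, with all other libraries in the fit, no gene of the 46 was called, where 62 genes in all were. Replicate 1 alone leaves 1 library per group, so calls there cannot be judged. The summed SMTN-rich smooth muscle list was lower with siPRRX1 and the epithelial list higher (1580 to 2140 CPM, against 1020 to 1370 CPM with siCTR), and their part in these results was not tested.

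**Figure D4:**
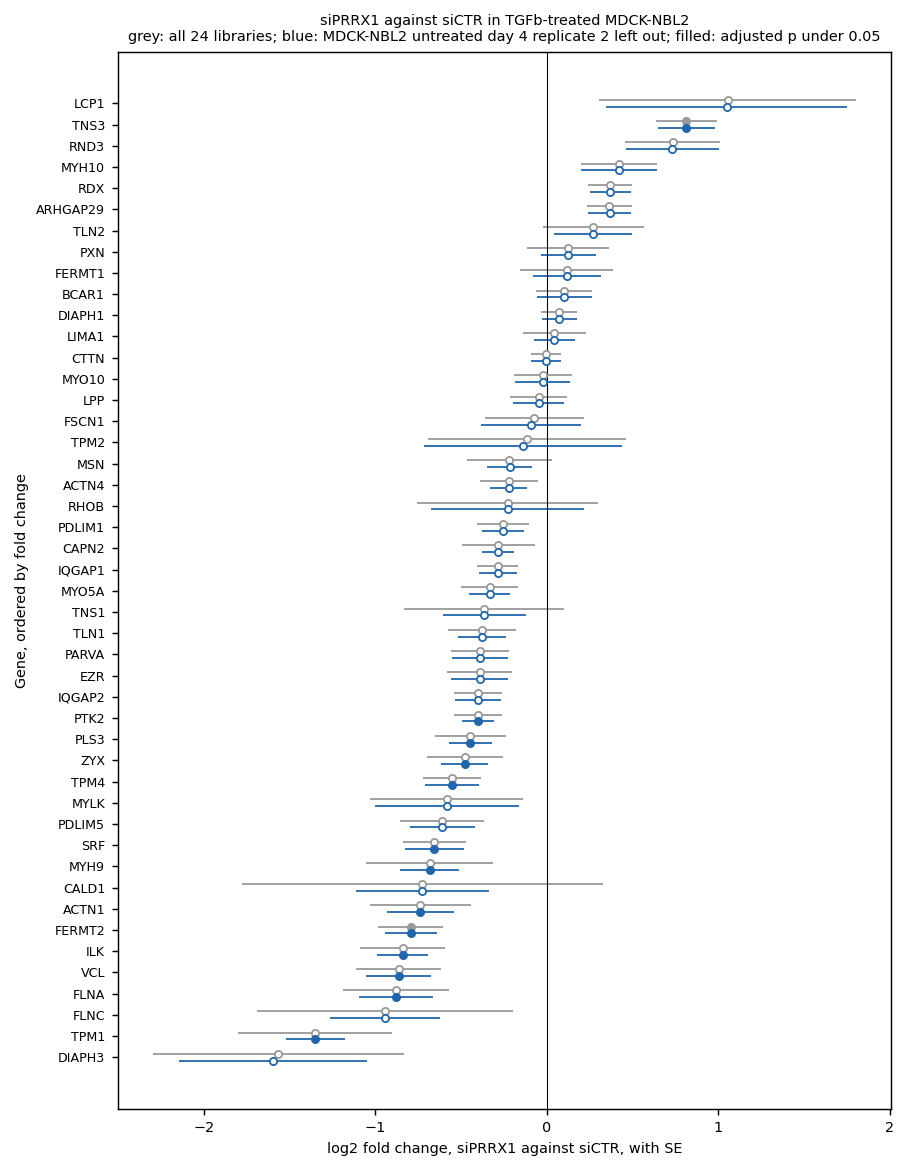
Log2 fold change of each of the 46 genes with siPRRX1 against siCTR in TGFb-treated MDCK-NBL2, with SE bars, ordered by size; grey points use all 24 libraries, blue points leave out untreated MDCK-NBL2 of day 4, replicate 2, and filled points are called. Most points lie left of 0, the SE bars are shorter in blue, and 2 grey and 13 blue points are filled.

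The untreated lines differed at day 0 before any treatment. Of the 46 genes 13 were higher and 4 lower in MDCK-NBL2 than in MDCK-II, where 28.5% of all genes were called (14.8% higher and 13.8% lower). The median difference was 0.285, against -0.0427 over all genes. IQGAP2 had 1 count over the MDCK-II libraries of day 0 and 41.6, 58.5 and 50.2 CPM in MDCK-NBL2, a ratio of 2541 (counting interval from 455.6 to 100400). CALD1 had no count in MDCK-II and 10.7, 3.93 and 14 CPM in MDCK-NBL2, at least 116.7-fold higher against 3 counts over the group, a call that ended without MDCK-II replicate 2 (adjusted p = 0.0691). FERMT1 was at 6.76, 5.3 and 5.28 CPM in MDCK-II and 42, 32.9 and 31.8 CPM in MDCK-NBL2, a difference of 2.62 ± 0.30 (adjusted p = 1.86e-06). TLN1 was at 175, 163 and 147 and 455, 416 and 417 CPM, a difference of 1.41 ± 0.20 (adjusted p = 2.41e-05). For these 4 genes no MDCK-NBL2 library reached down to the MDCK-II range. EZR was at 921, 902 and 989 CPM in MDCK-II and 1554, 2085 and 1636 CPM in MDCK-NBL2, a difference of 0.91 ± 0.19 (adjusted p = 0.0011). Also higher in MDCK-NBL2 were FLNC (5.37 ± 1.63 (adjusted p = 0.0172)), RND3 (1.04 ± 0.28 (adjusted p = 0.00788)), TPM4 (0.80 ± 0.17 (adjusted p = 0.00137)) and MYO5A (0.77 ± 0.17 (adjusted p = 0.00144)). FERMT2 (0.68 ± 0.19 (adjusted p = 0.0109)), PTK2 (0.63 ± 0.14 (adjusted p = 0.00198)), PARVA (0.50 ± 0.17 (adjusted p = 0.0339)) and LPP (0.45 ± 0.17 (adjusted p = 0.0495)) completed the 13. The 4 genes lower in MDCK-NBL2 included MYH10, at 74.9, 90.6 and 91.4 CPM in MDCK-II and 23.9, 17.2 and 22.8 CPM in MDCK-NBL2 (-2.02 ± 0.23 (adjusted p = 1.9e-06)). The others were ARHGAP29 (-1.15 ± 0.13 (adjusted p = 1.56e-06)), FSCN1 (-0.89 ± 0.28 (adjusted p = 0.0195)) and TNS3 (-0.80 ± 0.17 (adjusted p = 0.00125)). Some of these calls ended without 1 library. Those of FLNC and PARVA ended without MDCK-NBL2 replicate 1, the library that carried MDCK-II genes (adjusted p = 0.0808 and 0.158). That of LPP ended without MDCK-NBL2 replicate 3 (0.177) and that of FSCN1 without MDCK-NBL2 replicate 2 (0.109), among others. Without the outlying library 18 were higher and 7 lower, where 34% of all genes were called (17% higher and 16.9% lower). A fit of the 6 libraries of day 0 alone called 21 as higher and 8 as lower, where 42.6% of all genes were called.

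Since 1 untreated library of day 4 stood apart, TGFb-treated MDCK-NBL2 was also compared with untreated MDCK-NBL2 of day 0, a comparison in which treatment and time in culture cannot be told apart. It shares its treated libraries with the comparison at day 4. Here 30 of the 46 genes rose and 6 fell, where 58.2% of all genes were called (31.2% up and 27.1% down). The median was 0.705, against 0.0395 over all genes. Without the outlying library 32 rose and 6 fell, where 60.2% were called (32.2% up and 28% down). RHOB was at 57.2, 44.1 and 50 CPM at day 0 and 667, 561 and 420.1 CPM with TGFb, a change of 3.45 ± 0.58 (adjusted p = 7.95e-05). CALD1 was at 10.7, 3.93 and 14 CPM at day 0 (6.10 ± 1.33 (adjusted p = 0.00117)), FLNC at 7.27, 2.12 and 1.75 CPM (6.52 ± 0.97 (adjusted p = 2.7e-05)) and TNS1 at 72.2, 41.9 and 48.5 CPM (2.77 ± 0.50 (adjusted p = 0.000142)). All treated libraries of these 4 genes lay above all libraries of day 0. TPM1 rose from 118, 103 and 141 CPM, by 1.93 ± 0.46 (adjusted p = 0.00149), and MYH10 rose from 23.9, 17.2 and 22.8 CPM, by 1.65 ± 0.23 (adjusted p = 1.48e-05), although neither passed against untreated cells of day 4. The 6 that fell were DIAPH3 (-4.30 ± 0.74 (adjusted p = 9.54e-05)), TNS3 (-2.07 ± 0.18 (adjusted p = 4.61e-07)), TLN2 (-1.42 ± 0.30 (adjusted p = 0.000604)), EZR (-1.06 ± 0.19 (adjusted p = 0.000137)), MYO10 (-0.51 ± 0.17 (adjusted p = 0.0155)) and CTTN (-0.22 ± 0.09 (adjusted p = 0.0417)). The CTTN call ended without any of 4 of the 6 libraries (adjusted p up to 0.119) and with a replicate block (0.0567), and the MYO10 call without TGFb replicate 2 (0.0508). Of the 8 contractile genes 7 rose, and TPM4 was not called (-0.16 ± 0.17 (adjusted p = 0.428)).

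Within pairs of related genes the balance can be read inside a library as the log2 ratio of the counts, which shows unequal change but not which gene changed. Of 11 such pairs, 4 had ratios that did not overlap between untreated and TGFb-treated libraries of day 4 in either line. These were TNS1/TNS3, TLN1/TLN2, MSN/EZR and DIAPH1/DIAPH3, and the first 3 are described here. No share over pairs of other genes was computed, so these counts of pairs have no background beside them. The ratios come from the same counts as the changes above and restate them. In 3 pairs the ratios overlapped in 1 line (ACTN1/ACTN4, TPM1/TPM4 and FLNA/FLNC), in 2 in both lines (MYH9/MYH10 and FERMT2/FERMT1), and 2 had libraries with no count for 1 gene. The ratio of MYH9 to MYH10, for example, was 4.44, 6.65 and 4.97 in untreated MDCK-NBL2 and 6.40, 6.89 and 6.44 with TGFb. The ratio of TNS1 to TNS3 was -0.30, -1.20 and -1.23 in untreated MDCK-II of day 4 and 2.17, 2.31 and 2.39 with TGFb. In MDCK-NBL2 it was -0.89, 1.86 and -1.50 untreated, 3.97, 4.01 and 3.84 with TGFb, 4.27, 3.61 and 4.11 with siCTR and 3.43, 2.53 and 2.48 with siPRRX1. The groups with and without TGFb did not overlap in either line, and siPRRX1 lay below siCTR. The ratio of TLN1 to TLN2 was 1.66, 1.06 and 1.00 in untreated MDCK-II and 2.82, 3.03 and 2.76 with TGFb. It was 2.40, 4.52 and 2.29 in untreated MDCK-NBL2 and 5.63, 5.29 and 5.66 with TGFb. For MSN to EZR it was 0.01, -0.36 and -0.42 in untreated MDCK-II and 0.17, 0.43 and 0.23 with TGFb. It was at -2.55, -0.68 and -2.57 in untreated MDCK-NBL2 and -0.04, -0.05 and -0.16 with TGFb. In all 3 pairs the outlying library was the untreated one nearest to the treated libraries of its line. Counts of FERMT2 to FERMT1 were at 2.78, 2.41 and 2.39 with siCTR and 1.75, 1.61 and 1.46 with siPRRX1, without overlap. Whether reads shared by such related genes were split in the counting is not given in the sources used here.

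**Figure D5:**
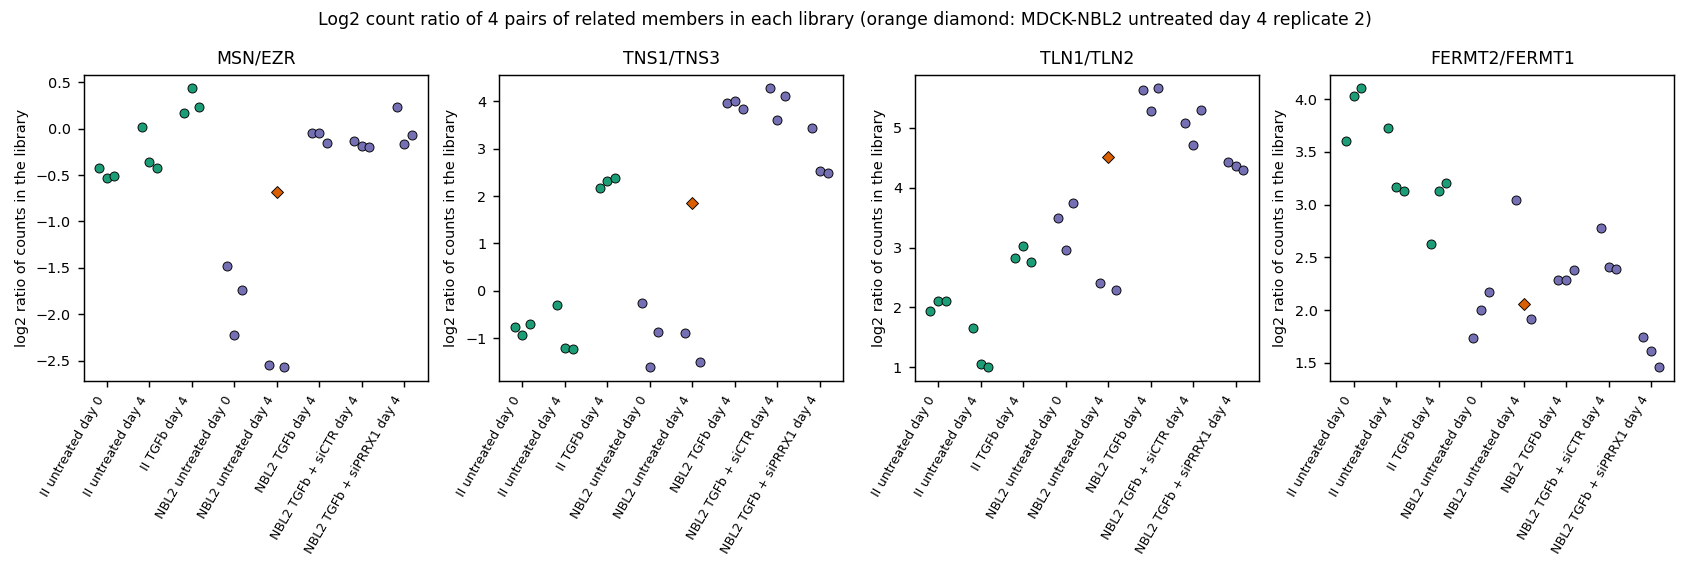
Log2 ratio of the counts of 4 pairs of related genes in each library (points) by group, with a diamond for untreated MDCK-NBL2 of day 4, replicate 2. TNS1/TNS3, TLN1/TLN2 and MSN/EZR are higher in TGFb-treated than in untreated libraries of day 4 in both lines, and FERMT2/FERMT1 is lower with siPRRX1 than with siCTR.

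Further genes of the same pathways, outside the 46, were followed as 2 lists. Of 37 tested genes for actins, the ARP2/3 complex, nucleation and turnover, 10 rose and 2 fell in MDCK-II and 15 rose and 4 fell in MDCK-NBL2, with a median log2 fold change of 0.338 and 0.337. That is 32.4% and 51.4% called, where 21.1% and 44.3% of all genes were. With the outlying library left out, 16 rose and 4 fell in MDCK-II and 22 rose and 5 fell in MDCK-NBL2 (medians 0.339 and 0.576). Of 31 further focal adhesion genes, 8 rose and none fell in MDCK-II and 11 rose and 3 fell in MDCK-NBL2 (medians 0.343 and 0.283). The shares called were 25.8% and 45.2%, beside the same 21.1% and 44.3%, so that of MDCK-NBL2 was near the share of all genes. These counts became 13 up and 1 down in MDCK-II and 16 up and 4 down in MDCK-NBL2 without the outlying library (medians 0.343 and 0.778), with 30.7% and 54.8% of all genes called. The genes with the smallest adjusted p in MDCK-II were NEDD9 (a docking protein related to BCAR1, 2.42 ± 0.47, adjusted p = 0.00171), ARHGEF7 (0.82 ± 0.16, 0.00218) and PAK1 (0.81 ± 0.21, 0.0104) among the adhesion genes. Among the actin genes DAAM1, a formin, fell by 0.77 on the log2 scale (0.00583) while CAPZB (0.61 ± 0.16, 0.0134) and ENAH (0.46 ± 0.12, 0.0137) rose. In MDCK-NBL2 the corresponding genes that rose were ACTR2, an ARP2/3 subunit (1.06 ± 0.175, 0.000154), DSTN, which severs filaments (1.58 ± 0.27, 0.000175), and ENAH (0.68 ± 0.12, 0.00033). So did the adhesion genes RSU1 (0.75 ± 0.14, 0.000388) and NEXN (3.54 ± 0.69, 0.000538). TRIP6, a relative of zyxin, fell there (-0.67 ± 0.13, 0.000502). With siPRRX1 no gene of either list rose, and 3 and 2 fell, where 1.19% of all genes fell. The counts were 6 and 6 without the outlying library, where 3.24% of all genes fell.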

How the data were processed

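The authors deposited a table of raw counts, whole numbers for each gene in each of 24 libraries. STAR 2.5.3a and RSEM 1.3.0 are named in the submitters' processing notes, as are FastQC and the dog build CanFam3.1. What each tool did is not stated there, nor the annotation or the strand setting. Genes were matched by symbol as listed in the table. The 46 genes, the further lists and the comparisons were chosen with earlier results of these data known. Counts were fitted with edgeR 4.0.16 (R 4.3.3): TMM scaling, filterByExpr (minimum count 10, minimum total 15), 1 mean per group over all 24 libraries with 16 residual degrees of freedom, quasi-likelihood F tests and Benjamini-Hochberg adjustment over all 12466 genes tested. The SE is the log2 fold change divided by the root of F. The script was tested on simulated data. DESeq2 1.42.0 served as an alternative, with further ones for scaling, filter, groups fitted, replicate block, library number series and libraries left out; leaving out the outlying libraries and the number series was chosen after seeing the data. A fold against a group with no count uses a floor of 3 counts over the group, and intervals (95%) cover counting error only. Library depth, 6134929 to 27567296 counts, limits genes with few counts such as LCP1, TPM2 and MYLK.

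Replicate numbers were checked for pairing by correlating the deviations of same-numbered libraries from their group means. All 3 correlations were positive and above the limit used in MDCK-II of day 4 (0.421, 0.251 and 0.295) and between the siRNA groups (0.343, 0.189 and 0.164), so the numbers were taken to pair the libraries there, from the data and not from a label. In both siRNA groups replicate 1 is of another series of library numbers than replicates 2 and 3. For these groups the correlations therefore cannot tell pairing apart from series. In MDCK-II of day 4 same-numbered libraries have adjacent library numbers and similar depth. Total counts untreated and with TGFb were 27123727 and 27500500 for replicate 2 and 8019068 and 8991167 for replicate 3. Pairing cannot be told apart from these there either. P-values are from the fit without pairing unless a replicate block is named. In the other comparisons at least 1 correlation was under that limit (0.0371 in TGFb-treated and untreated MDCK-NBL2, 0.0726 between the lines at day 0, 0.0841 against day 0). Levels per library are given for the 8 called genes with the largest change in each of the first 4 comparisons, for related gene pairs and families and for SRF, and any called gene may be named. From each further list the 3 genes with the smallest adjusted p in each line are named. The counts of 1 role group and of 1 further list are not reported here.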

Additional observations from a re-analysis of the deposited data

Results flagged for a closer look

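The TGFb response differed between MDCK-NBL2 and MDCK-II by the test of the difference itself for TNS3, with a log2 difference of -1.18 (MDCK-NBL2 minus MDCK-II, adjusted p = 0.0102 by edgeR's quasi-likelihood test, n = 3 libraries per group): TNS3 was lower with TGFb in all 3 treated libraries of each line, and further in MDCK-NBL2. The same test passed for MYO5A, with a log2 difference of 0.862 (adjusted p = 0.0362), where treated libraries were above untreated ones in both lines. The MYO5A call ended without any of 8 of the 12 libraries (adjusted p up to 0.0948), with a replicate block (0.0591), with no filter on low counts (0.0656) and in a fit of only the groups compared (0.239).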

How the results depend on the processing

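The counts of called genes for TGFb in MDCK-II, TGFb in MDCK-NBL2 and TGFb-treated MDCK-NBL2 against day 0 stayed within 1.5 times of 20, 32 and 36 under every alternative run except some libraries left out and the fit of only the groups compared. Leaving out 1 library of the groups compared gave 9 to 23 in MDCK-II (9 without TGFb replicate 2, 12 without TGFb replicate 3), 25 to 34 in MDCK-NBL2, 1 to 18 for the difference of the responses (18 without the outlying library), 0 to 2 for siPRRX1, 13 to 16 between the lines at day 0 and 31 to 36 against day 0. Calls over all genes moved too. In MDCK-II they were 2626 with all libraries, 1257 without TGFb replicate 2 and 1526 without TGFb replicate 3. In MDCK-NBL2 they were 5525 with all libraries and 4457 to 6890 with 1 left out. For the difference they were 711 and 311 to 2653, and for siPRRX1 249 and 54 to 234. At day 0 they were 3558 and 2691 to 3096, and against day 0 7259 and 6174 to 6938. Leaving out the first outlying library where it is in neither group gave 29 in MDCK-II, 13 for siPRRX1, 25 at day 0 and 38 against day 0. There 30.7%, 5.21%, 34% and 60.2% of all genes were called. Of the 20, 32, 17 and 36 calls, 6, 22, 12 and 30 held without each library of the groups compared, and the others ended at adjusted p of 0.0502 to 0.279, 0.0522 to 0.191, 0.0568 to 0.177 and 0.0508 to 0.143. With 1 library left out, the spread still came from all groups. Fitting only the groups compared gave 4 for TGFb in MDCK-NBL2, 1 for the difference, 23 for siPRRX1 and 29 between the lines at day 0. There 4.48%, 0.395%, 10.3% and 42.6% of all genes were called. By library number, TGFb-treated MDCK-NBL2 replicate 1 is in another series than the untreated MDCK-NBL2 libraries. Without it and the first outlying library, TGFb in MDCK-NBL2 gave 34 calls, 30 up and 4 down (6225 over all genes). With the series as a term it gave 33 (5329 over all genes).

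The difference of the responses and the siPRRX1 comparison, each with 2 calls, moved most. DESeq2's Wald test gave 4 and 7, and no filter on low counts gave 1 and 1. Calls over all genes were 1188 and 472 with DESeq2 and 492 and 163 with no filter, beside 711 and 249. Leaving out both outlying libraries gave 19 and 14, with 2670 and 700 over all genes. Leaving out the first and in addition siCTR replicate 1, 2 or 3 gave 4, 11 and 8, and siPRRX1 replicate 1, 2 or 3 gave 12, 4 and 3. Over all genes these 6 fits called 266, 500, 304, 586, 332 and 159. Within the siRNA libraries of replicates 2 and 3 there were 0 calls, and 6 without the first outlying library, with 62 and 232 over all genes. Replicate 1 alone leaves 1 library per group, so its calls are not counted. With the replicate block the counts were 18 for TGFb in MDCK-II, 35 in MDCK-NBL2, 1 for the difference, 2 for siPRRX1, 12 at day 0 and 36 against day 0. Over all genes they were 2666, 5672, 689, 244, 2567 and 7405. With the block and without the first outlying library they were 30 for TGFb in MDCK-II and 16 for siPRRX1, with 4184 and 867 over all genes. In MDCK-II and siPRRX1, where the numbers were taken to pair libraries, the block ended the calls of CALD1 and MYLK only. Its replicate terms are shared by all groups of a line, so it does not pair the siRNA groups alone. The difference of the responses turned sign for CAPN2 and TPM1 (0.44 and 1.31) without both outlying libraries and for TPM1 with the block (0.096). Leaving out 1 library gave -0.32 to 0.44 for CAPN2 and -0.52 to 1.31 for TPM1, highest without the first outlying library, and -0.024 to 0.77 for ILK and -0.046 to 1.38 for MYH9, lowest without untreated MDCK-NBL2 replicate 3 of day 4. Fits with libraries left out also had fewer libraries, and the cause was not tested.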
